A study of Mus musculus with 4 samples.

Results

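The nuclear-encoded subunits of the mitochondrial respiratory chain were followed in double-negative regulatory T cells (DNT) of the mouse. They were taken as the protein-coding rows of the deposited expression table whose symbol begins with Nduf (without the Ndufaf assembly factors), Uqcr, Cox4i to Cox8 or Atp5, together with Sdha, Sdhb, Sdhc and Sdhd. The rule found 85 genes of the 35275 in the table: 38 of complex I, 4 of complex II, 8 of complex III, 18 of complex IV and 17 of complex V. Another 11 rows met the symbol rule but are annotated as pseudogenes and were left out, the highest of them Ndufb4c at 1.14 to 2.21 RPKM (reads per kilobase of transcript, scaled to the library total). RNA was sequenced from 2 wild-type libraries and from 2 libraries labelled OX40-knockout, all of the strain C57BL/6. OX40 is a costimulatory receptor of T cells, encoded by Tnfrsf4. In both groups naive CD4 T cells had been converted to DNT, which were then isolated by flow cytometry on CD3 and the αβ T cell receptor, with cells bearing CD4, CD8 or NK markers gated out. Age, sex, day of preparation and the deleted stretch of the gene are absent from the labels. Nor do they state that libraries came from different animals, so each p-value reflects the spread between single libraries, possibly a technical one.

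The respiratory chain passes electrons from NADH (complex I) and succinate (complex II) by way of ubiquinone to complex III, then through cytochrome c to oxygen at complex IV. Complexes I, III and IV pump protons out of the matrix, and complex V, the ATP synthase, lets them return and makes ATP. Complex II is encoded in the nucleus alone, whereas the other complexes combine nuclear subunits with a few subunits encoded by mitochondrial DNA. Activated T cells enlarge their mitochondria as they grow, and memory and regulatory T cells are known for their use of oxidative phosphorylation. The transcription factor NRF1, unrelated to the stress regulator of similar name, is known for binding the promoters of many of these genes, next to the ETS factor GABP, YY1, CREB and the oestrogen-related receptors.

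The DNA just upstream of the start site is shown for the 4 members of highest level whose promoter holds an exact match to the NRF1 motif, GCGCA and GCGC with any base between them. Each line is the 250 bases before the annotated start, from RefSeq on the build GRCm38.p6, written 5′ to 3′ on the strand of the gene so that the last base adjoins the start. Capitals mark the matches. All 4 genes lie on the minus strand: Cox6a1 at chr5:115348959-115349208, Atp5g2 at chr15:102671048-102671297, Sdha at chr13:74350241-74350490 and Atp5h at chr11:115419920-115420169.
Cox6a1: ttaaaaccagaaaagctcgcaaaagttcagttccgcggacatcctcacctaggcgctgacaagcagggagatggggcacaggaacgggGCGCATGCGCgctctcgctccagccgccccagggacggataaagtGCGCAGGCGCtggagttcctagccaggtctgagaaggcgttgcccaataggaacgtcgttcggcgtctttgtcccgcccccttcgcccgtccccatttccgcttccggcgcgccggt
Atp5g2: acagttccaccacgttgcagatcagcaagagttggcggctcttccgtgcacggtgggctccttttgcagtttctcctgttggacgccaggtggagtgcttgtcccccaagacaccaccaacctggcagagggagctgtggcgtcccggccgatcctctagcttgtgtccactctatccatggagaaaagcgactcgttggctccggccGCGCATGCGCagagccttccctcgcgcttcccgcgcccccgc
Sdha: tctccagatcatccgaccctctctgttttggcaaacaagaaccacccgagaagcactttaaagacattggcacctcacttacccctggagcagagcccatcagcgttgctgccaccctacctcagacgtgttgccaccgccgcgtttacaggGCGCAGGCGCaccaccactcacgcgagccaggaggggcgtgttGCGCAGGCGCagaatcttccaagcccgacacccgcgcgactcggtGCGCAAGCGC
Atp5h: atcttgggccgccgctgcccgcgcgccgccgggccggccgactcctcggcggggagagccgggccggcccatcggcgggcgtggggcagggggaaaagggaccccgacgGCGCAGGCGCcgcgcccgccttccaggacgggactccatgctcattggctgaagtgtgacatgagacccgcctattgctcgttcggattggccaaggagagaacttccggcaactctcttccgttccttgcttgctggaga
The Cox6a1 promoter holds 2 matches, the first at 162 to 153 bases before the start. Sdha holds 3, the first at 98 to 89 bases before the start. Atp5g2 and Atp5h each hold 1, at 42 to 33 and at 141 to 132 bases before it.

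A RefSeq promoter, here 250 bases before to 50 bases after the start, was matched for 69 of the 85 members, Atp5f1 and Atp5s through their newer names. On both strands the NRF1 motif was found in 17 of the 69 (24.6%), in 12.3% of the 8930 tested genes with a promoter and in 7.2% of 17492 coding genes. By complex the matches numbered 7 of 33 in complex I, 2 of 3 in complex II (Sdha and Sdhd), 1 of 5 in complex III (Uqcrc1), 1 of 13 in complex IV (Cox6a1) and 6 of 15 in complex V (Atp5g2, Atp5h, Atp5g3, Atp5c1, Atp5o and Atp5k). The ETS motif CCGGAAG was held by 16 (23.2%, against 21.9% of tested genes), and the YY1 motif AAGATGGCG by 7 (10.1% against 4.0%), 5 of them in complex I. CREB sites of the form TGACGTCA were found in 4 (5.8% against 3.9%), and the ERR motif TCAAGGTCA in Sdhd and Atp5g3 (2.9% against 0.3%). No motif in the set contains another. A match is a description of the letters and not a bound site, and these shares were not tested.

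The libraries held between 22220888 and 24395743 reads, as read from the values. Of all genes, 11625 had a mean of at least 1 RPKM and were tested. Tnfrsf4, the targeted gene, had 18.2 RPKM in wild-type 1, 12.3 in wild-type 2, 12.1 in OX40-knockout 1 and 9.38 in OX40-knockout 2. A level over the whole gene does not tell which exons were read, so it is a weak check of the labels. All 8 T cell markers passed the filter, with Cd3e at 248 to 332 RPKM. The sort gated out cells bearing NK markers but need not deplete each of the 4 genes listed as such here. These summed to 213 and 329 RPKM in wild-type libraries and to 119 and 308 RPKM in knockout libraries. Of these sums Eomes gave 114 and 150 RPKM (wild-type) and 75.5 and 133 RPKM (knockout). Klrb1c gave 98.5 and 160 RPKM (wild-type) and 42.8 and 159 RPKM (knockout). Klrb1c, Eomes, Ncr1 and Klra8 were all lowest in OX40-knockout 1. Ncr1 and Klra8 also followed the replicate number, at 0.18 to 0.48 RPKM in both replicate 1 libraries and at 7.49 to 11.4 RPKM in both replicate 2 libraries. Of the coreceptors excluded by the sort, Cd8a was at 9.03 to 16.6 RPKM and Cd8b1 at 2.00 to 4.44 RPKM, both highest in OX40-knockout 1. Cd4 was at 0.82 and 1.97 RPKM in wild-type libraries but at 10.1 and 2.06 RPKM in knockout libraries. The 6 B and plasma cell markers summed to 3.08 and 2.62 RPKM (wild-type) and to 4.85 and 2.87 RPKM (knockout), with Ms4a1 and Pax5 at 0 throughout. The 8 myeloid markers summed to 4.32 and 10.3 RPKM (wild-type) and to 3.22 and 7.69 RPKM (knockout), with Siglech at 0 throughout. For the 6 erythroid and platelet markers the sums were 4.85 and 14.2 RPKM, then 8.35 and 10.9 RPKM. For the 6 stromal and epithelial markers they were 49.1 and 95.9 RPKM, then 61.3 and 132 RPKM, most of it from Pecam1 and Epcam. The part of these cell types in the results below was not tested, and in bulk RNA fewer cells of a type cannot be told apart from less RNA per cell.

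Respiratory chain transcripts were among the more abundant in DNT. A tested member stood at the median at percentile 88.9 of the mean level of all tested genes, and 37 members had a mean of at least 100 RPKM. Of the 85 members 80 passed the filter, namely 37, 4, 8, 14 and 17 of complexes I to V. In the order wild-type 1, wild-type 2, OX40-knockout 1 and OX40-knockout 2, which holds for every set of 4 values here, the median level of complex I was 72.3, 71.2, 61.6 and 74.6 RPKM. That of complex II was 75.8, 80.4, 71.1 and 78.1 RPKM. The medians of complex III were 109, 112, 97.5 and 118 RPKM, those of complex IV 167, 155, 126 and 181 RPKM, and those of complex V 205, 205, 168 and 217 RPKM. In each complex OX40-knockout 1 had the lowest median, and in all but complex II OX40-knockout 2 had the highest. A tested member was represented by at least 24 reads in every library, with a median of 1631.5, both approximated from the annotated transcript length.

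**Figure D1:**
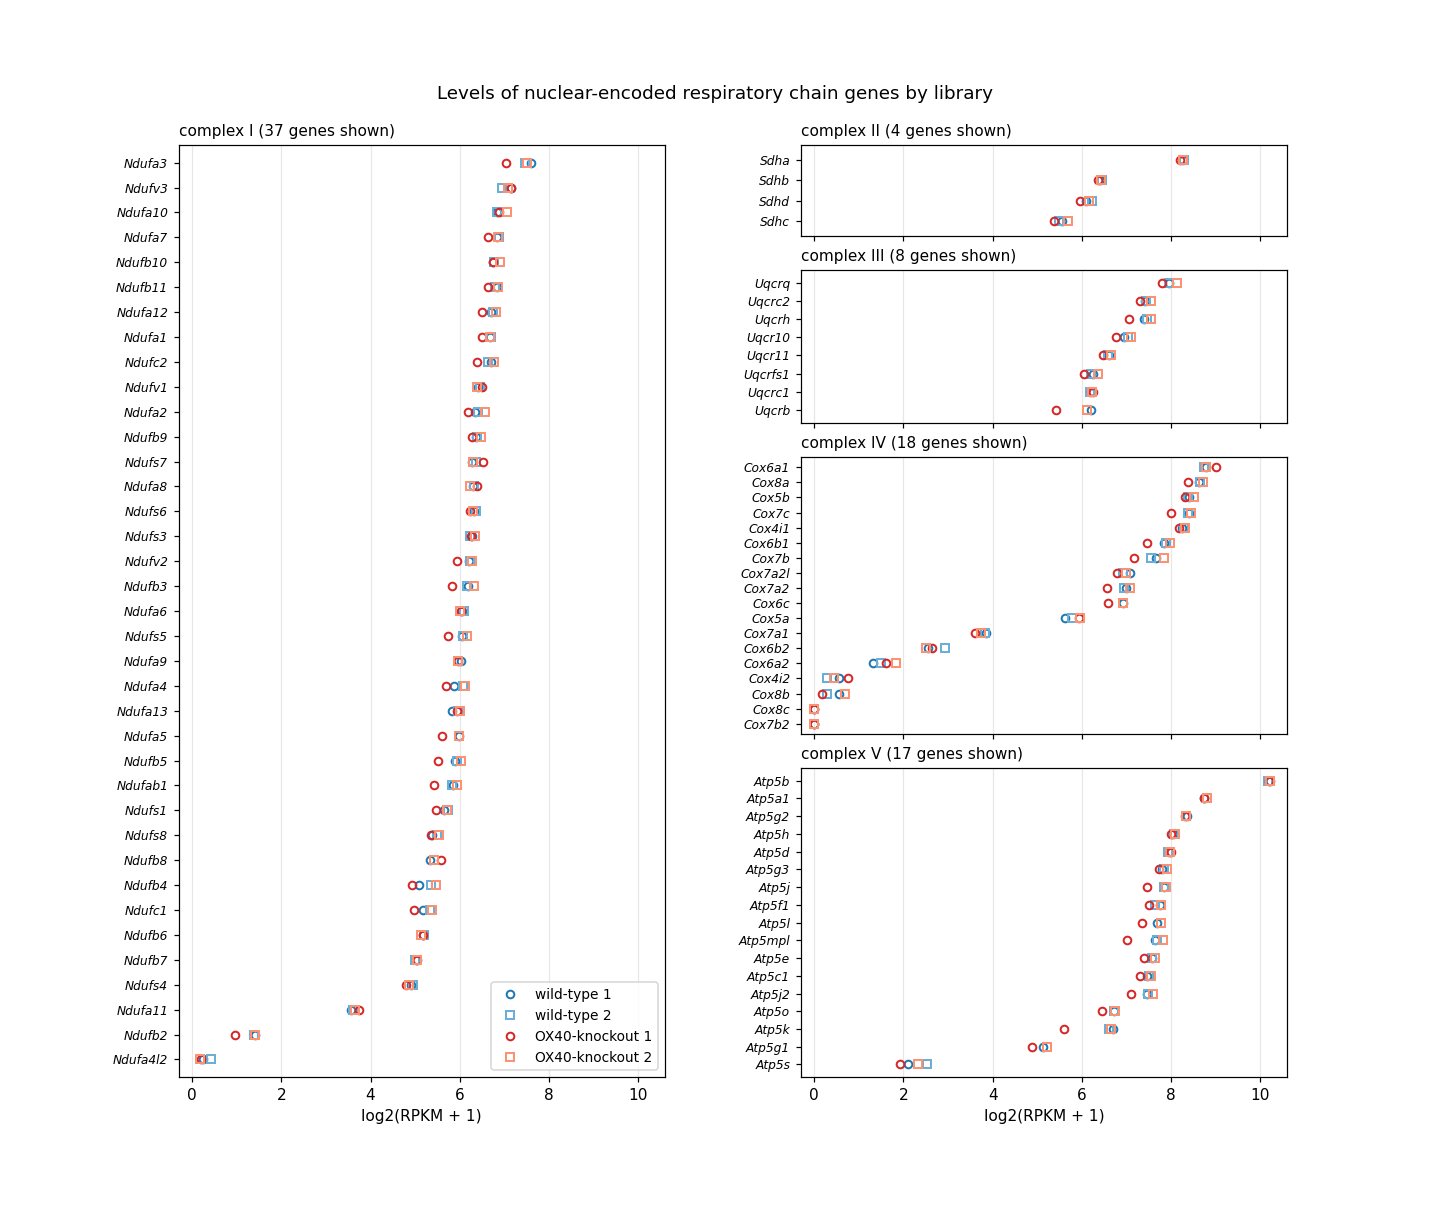
Level of 84 of the 85 members in the 4 libraries, as log2(RPKM + 1) on the horizontal axis, with 1 row per gene ordered by mean within each complex and 1 symbol per library (circles, replicate 1; squares, replicate 2; blue, wild-type; red, OX40-knockout). Symbols of a gene lie close together compared with the spread between genes, Atp5b is highest at 1161 to 1186 RPKM, and the OX40-knockout 1 symbol of Atp5k stands apart at 47.5 RPKM.

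Complex I oxidises NADH on its matrix arm, whose 7 nuclear-encoded core subunits include those that carry the flavin and the iron-sulphur clusters. The rest of the nuclear subunits are accessory. The most abundant member was Ndufa3, an accessory subunit, at 194, 177, 131 and 182 RPKM. Ndufv3, an accessory subunit beside the flavin-bearing Ndufv1, stood at 141, 123, 142 and 135 RPKM. Ndufa10 was at 114, 113, 118 and 132 RPKM, with both knockout libraries above both wild-type libraries. Ndufa5 was at 62.6, 62.5, 48.0 and 62.0 RPKM, so that both knockout libraries were lower, OX40-knockout 2 by little. Core and accessory subunits were counted separately, with no test between them. Among the 7 core subunits OX40-knockout 1 was the lowest library for 3 and the highest for 3, the latter including Ndufs7 and Ndufv1. Its median deviation from the mean of the 4 libraries, on the log2(RPKM + 1) scale, was -0.02. Among the 30 tested accessory subunits it was lowest for 19 and highest for 5, with a median deviation of -0.14. Ndufs7, which holds a cluster next to the ubiquinone site, was at 76.1, 81.6, 90.5 and 77.5 RPKM, and Ndufs1, the largest core subunit, at 49.5, 52.0, 43.0 and 51.1 RPKM. The accessory subunits Ndufs6 and Ndufa6 were at 78.6, 81.7, 74.1 and 77.8 RPKM and at 65.5, 67.0, 64.8 and 63.5 RPKM, lower in both knockout libraries. For these genes the groups did not overlap, though neither passed the limma test (adjusted p = 0.975). Ndufab1, which is also the acyl carrier protein of mitochondrial fatty acid synthesis, was at 56.3, 56.1, 42.1 and 59.9 RPKM, and so lowest in OX40-knockout 1 and highest in OX40-knockout 2. Ndufb2, an accessory subunit of the membrane arm, was the lowest of the tested members of the complex at 1.65, 1.61, 0.94 and 1.67 RPKM, and Ndufa11 stood at 10.7 to 12.3 RPKM.

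Complex II is succinate dehydrogenase, an enzyme of both the respiratory chain and the tricarboxylic acid cycle. Sdha, the flavoprotein that oxidises succinate, stood at 306, 312, 291 and 307 RPKM. Sdhb, which carries the iron-sulphur clusters, was at 84.2, 86.4, 80.8 and 85.7 RPKM. The membrane anchors Sdhc and Sdhd were at 46.0, 44.0, 40.5 and 50.3 RPKM and at 67.3, 74.4, 61.5 and 70.5 RPKM. All 4 genes were lowest in OX40-knockout 1, which stood 1.06-fold to 1.15-fold below the mean of the other libraries. OX40-knockout 2 lay between the wild-type libraries for Sdha, Sdhb and Sdhd and above both for Sdhc.

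Complex III passes electrons from ubiquinol to cytochrome c. Uqcrq and Uqcrh, small accessory subunits, stood at 246, 245, 220 and 280 RPKM and at 167, 174, 132 and 187 RPKM. Uqcrc2, one of the core proteins facing the matrix, was at 169, 173, 157 and 186 RPKM. Its partner Uqcrc1 was at 71.2, 71.9, 75.3 and 73.6 RPKM, the only member of the complex with both knockout libraries above both wild-type libraries. Uqcrfs1, the Rieske iron-sulphur protein, stood at 75.4, 72.2, 64.7 and 81.8 RPKM. The small accessory subunits Uqcr10 and Uqcr11 were at 122, 130, 107 and 137 RPKM and at 96.1, 94.8, 87.9 and 99.1 RPKM. In all of these but Uqcrc1, OX40-knockout 1 was the lowest and OX40-knockout 2 the highest library. For Uqcrb, an accessory subunit near the ubiquinone site, the values were 72.2, 67.9, 42.1 and 68.6 RPKM. OX40-knockout 1 was thus 1.65-fold below the mean of the other 3 libraries for Uqcrb, which lay close together. It was the lowest library for 7 of the 8 genes that the symbol rule takes. Cyc1, which encodes the cytochrome c1 subunit of this complex, falls outside the rule and is listed below with the electron carriers. Its values were 67.7, 72.4, 69.0 and 71.8 RPKM, lowest in wild-type 1.

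The nuclear subunits of complex IV surround a catalytic core that mitochondrial DNA encodes, and several exist as tissue-specific pairs. Cox6a1 led the complex at 437, 426, 513 and 442 RPKM and was the 1 tested member of it that was highest in OX40-knockout 1. Cox8a, Cox5b and Cox7c were next. Cox8a stood at 394, 403, 330 and 421 RPKM, Cox5b at 335, 330, 318 and 364 RPKM, and Cox7c at 336, 332, 255 and 347 RPKM. All 3 were lowest in OX40-knockout 1 and, as with Uqcrq and Uqcrh, highest in OX40-knockout 2. Cox4i1, a subunit through which the complex is regulated by adenine nucleotides, stood at 303, 313, 289 and 318 RPKM. The accessory subunits Cox6b1 and Cox6c were at 228, 234, 176 and 252 RPKM and at 120, 119, 95.2 and 121 RPKM. They showed the same order of the knockout libraries around close wild-type values. Cox5a, a matrix-facing subunit, was at 48.1, 54.2, 60.6 and 61.1 RPKM, with both knockout libraries above both wild-type libraries. Cox7b was at 201, 188, 143 and 228 RPKM, so that the knockout libraries lay on both sides of the wild-type libraries. Cox7a1, the muscle form, was at 13.4, 13.2, 11.1 and 12.4 RPKM, lower in both knockout libraries.

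DNT expressed mainly the widespread form of each paired subunit. Shares of summed RPKM within a set, compared per length, put Cox4i1 at 99.8% to 99.9% over its lung and hypoxia form Cox4i2, and Cox6a1 at 99.4% to 99.7% over the heart and muscle form Cox6a2. Cox6b1 held 97.1% to 98.2% over the testis form Cox6b2. Cox8a held 99.86% to 99.96% over Cox8b and Cox8c, and Cox7b held 100% over Cox7b2. In the Cox7a set the share was divided between Cox7a2l at 46.3% to 50.8% and Cox7a2 at 44.0% to 49.2%, with Cox7a1 at 4.57% to 5.19%. Ndufa4, named for complex I but now known as a subunit of complex IV, stood at 57.2, 66.8, 50.5 and 68.8 RPKM and made up 99.5% to 99.8% of its set with the hypoxia-induced Ndufa4l2. Of the tested minor forms, Cox6a2 was at 1.51, 1.81, 2.05 and 2.56 RPKM and Cox6b2 at 4.82, 6.57, 5.22 and 4.67 RPKM. The 5 members under the filter were all such forms. Ndufa4l2 ranged from 0.14 to 0.34 RPKM, Cox4i2 from 0.22 to 0.68 RPKM and Cox8b from 0.12 to 0.61 RPKM, on 1 to 11 reads a library. Cox8c and Cox7b2 were at 0 in all 4 libraries, which allows up to 0.295 and 0.249 RPKM if 3 reads are taken as the limit of a count of 0 and the annotated length is used.

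Complex V held the most abundant member of all. Atp5b, the catalytic beta subunit of the F1 head, stood at 1183, 1161, 1165 and 1186 RPKM. Its partner Atp5a1, the alpha subunit, was at 429, 444, 425 and 446 RPKM. For both genes the 4 libraries lay close together and the groups overlapped. Atp5c1, the gamma subunit that turns inside the head, was at 175, 181, 157 and 186 RPKM. Atp5d and Atp5e, at the foot of this shaft, stood at 246, 243, 254 and 250 RPKM and at 190, 189, 168 and 200 RPKM. Within the F1 head only Atp5d was highest in OX40-knockout 1. The 3 genes that encode the same proton-carrying c subunit differed in level: Atp5g2 was at 329, 324, 318 and 320 RPKM, Atp5g3 at 220, 229, 210 and 238 RPKM, and Atp5g1 at 34.2, 36.3, 28.5 and 36.0 RPKM. Atp5g2 thus made up 53.9% to 57.1% of the set, Atp5g3 37.7% to 40.0% and Atp5g1 5.12% to 6.16%.

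The small membrane subunits of complex V, which include those that hold ATP synthase dimers together, differed between the libraries, Atp5k the most of all tested members. Atp5k, known as subunit e, was at 102, 96.2, 47.5 and 100 RPKM. Atp5mpl, a small proteolipid, was at 199, 205, 128 and 225 RPKM, and Atp5l, known as subunit g, at 205, 217, 163 and 216 RPKM. Atp5j2, known as subunit f, stood at 174, 179, 137 and 194 RPKM. In each of these the level in OX40-knockout 1 was below that of the other 3 libraries, by 2.10-fold for Atp5k and 1.64-fold for Atp5mpl against their mean. Together the 4 small membrane subunits had a median deviation of -0.42 in OX40-knockout 1, against -0.03 for the 5 subunits of the F1 head, -0.09 for the 3 c subunit genes and -0.19 for the 4 of the peripheral stalk, without a test between these classes. In the stalk, Atp5h was at 262, 266, 257 and 272 RPKM, Atp5f1 at 213, 199, 182 and 217 RPKM, and Atp5j at 227, 228, 175 and 237 RPKM. Atp5o, the stalk subunit that confers oligomycin sensitivity, was at 105, 105, 85.9 and 106 RPKM. All 4 stalk subunits were lowest in OX40-knockout 1 and highest in OX40-knockout 2. Atp5s, which the symbol rule takes although its product is a coupling factor and not a subunit, was at 3.28, 4.72, 2.79 and 4.03 RPKM and had the largest difference between wild-type libraries of any tested member (0.42 in log2(RPKM + 1)).

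Knockout and wild-type libraries were compared with limma on log2(RPKM + 1), a scale that understates the change of low genes. No member passed. With limma, 0 of the 80 tested members had a Benjamini-Hochberg adjusted p under 0.05, against 0.0% of all 11625 genes, and 0 had an unadjusted p under 0.05, against 1.39% of all genes. Adjusted p-values of the members lay between 0.975 and 1.00. The member of lowest p was Cox5a, at 51.2 ± 4.36 RPKM in wild-type and 60.8 ± 0.334 RPKM in knockout libraries (mean ± SD, n = 2 each), with a log2 change of 0.25 and a standard error of 0.11. Cox6a2 followed with 0.31 (SE 0.19), from 1.66 ± 0.213 to 2.31 ± 0.358 RPKM. For Uqcrb the log2 change was -0.38 (SE 0.25), from 70.1 ± 3.05 to 55.3 ± 18.8 RPKM, and for Atp5k it was -0.52 (SE 0.36), from 99.2 ± 4.37 to 73.8 ± 37.3 RPKM. The SD of both genes in the knockout group was several times that in the wild-type group, and OX40-knockout 2 lay between the wild-type libraries, so the groups overlapped.

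None of the other members of low p or wide range reached the size of the Uqcrb and Atp5k differences. In complex I the log2 changes were -0.26 (SE 0.19) for Ndufa3, -0.19 (SE 0.15) for Ndufa5 and 0.14 (SE 0.11) for Ndufa10. In complex III they were -0.12 (SE 0.19) for Uqcrh and 0.06 (SE 0.10) for Uqcrc1, and in complex IV -0.16 (SE 0.13) for Cox7a1. In complex V they were -0.17 (SE 0.17) for Atp5l and -0.13 (SE 0.14) for Atp5o. Of the members with the widest range, Atp5mpl was at -0.25 (SE 0.28), Atp5s at -0.18 (SE 0.24) and Cox7b at -0.11 (SE 0.24). In all, 45 of the 80 had a log2 change under 0.1 in size, against 43.7% of all tested genes, and 77 were under 0.3.

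By complex, the median log2 change between the genotypes was -0.05 in complex I, -0.04 in complex II, -0.03 in complex III, -0.11 in complex IV and -0.06 in complex V, and -0.03 over all tested genes. The mean of the knockout libraries was lower for 56 of the 80 members, against 56.6% of all genes. These were 23 of 37 in complex I, 3 of 4 in complex II, 6 of 8 in complex III, 10 of 14 in complex IV and 14 of 17 in complex V. Both knockout libraries lay above both wild-type libraries for 9 members, which included Ndufa10, Uqcrc1, Cox6a1, Cox5a, Cox6a2 and Atp5d, against 8.66% of all genes. Both lay below for 6 (Ndufs6, Ndufa6, Ndufa5, Ndufs4, Cox7a1 and Atp5g2), against 17.8% of all genes.

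For 40 of the 80 members OX40-knockout 1 was the lowest and OX40-knockout 2 the highest of the 4 libraries, against 14.3% of all genes: 15, 1, 6, 8 and 10 members of complexes I to V. Counted alone, OX40-knockout 1 was the lowest of the 4 libraries for 58 of the 80 members, against 42.6% of all genes: 22 of 37 in complex I, 4 of 4 in complex II, 7 of 8 in complex III, 10 of 14 in complex IV and 15 of 17 in complex V. It was also the lowest for 68 of 80 cytosolic ribosomal protein genes, 51 of 76 mitochondrial ribosomal protein genes and 25 of 38 proteasome subunits, so this is not particular to the members. OX40-knockout 2 was the highest for 47 of the 80, against 19.4% of all genes. Its median deviation was 0.096 over the members and -0.011 over all tested genes. Over the cytosolic ribosomal, mitochondrial ribosomal and proteasome genes it was 0.092, 0.079 and 0.027, so a rise there is not particular to the members either. For 26 members OX40-knockout 1 stood at least 0.2 below the lowest of the others, against 19.6% of all genes. Set against the wild-type library of the same number, OX40-knockout 1 was lower for 62 members (51.9% of all genes), with median differences of -0.12, -0.10, -0.17, -0.25 and -0.18 in complexes I to V. OX40-knockout 2 was higher than wild-type 2 for 59 members (37.9% of all genes), with medians of 0.04, -0.02, 0.09, 0.07 and 0.04. The equal numbers are not said to pair the libraries. NK marker levels were also lowest in OX40-knockout 1, and Cd4 was highest there, and their part in these values was not tested.

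**Figure D2:**
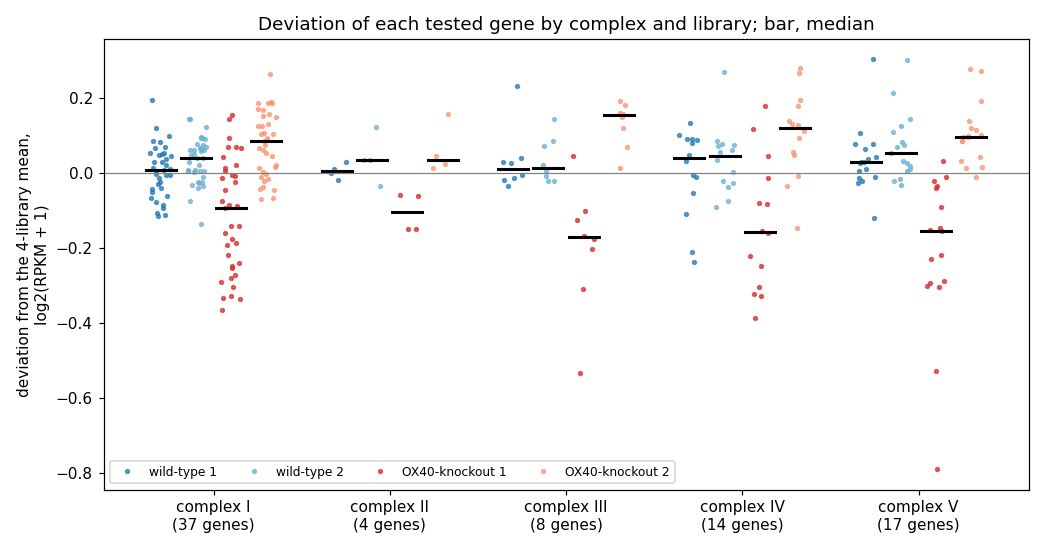
Deviation of each tested member from its mean over the 4 libraries, in log2(RPKM + 1) on the vertical axis, by complex and library, with 1 point per gene and a black bar at the median. In OX40-knockout 1 the medians lie between -0.17 (complex III) and -0.09 (complex I), and the lowest points are Atp5k, Uqcrb and Atp5mpl.

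Members varied little between the wild-type libraries. The median absolute difference between wild-type 1 and 2 was 0.038 in log2(RPKM + 1) over the members and 0.097 over all tested genes, whereas between the knockout libraries it was 0.227 over the members and 0.248 over all tested genes. The comparison with all genes was not matched for level, and the members' median level was at percentile 88.9 of all tested genes. Atp5k was the 1 member at least 2-fold apart between the knockout libraries (4.97% of all tested genes were), and no member was 2-fold apart between the wild-type libraries. The median SD over the 4 libraries was 0.118 for the members, small beside the SD of 1.55 between the members' mean levels.

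The deviation of OX40-knockout 1 went with the GC content of the transcript, for the members as for all genes. From the fifth of all tested genes lowest in GC to the fifth highest, the median deviation of all genes in that library was -0.19, -0.10, -0.02, 0.08 and 0.21. In the same classes the members, which numbered 10, 13, 22, 24 and 11, had medians of -0.24, -0.25, -0.18, -0.07 and 0.00. Across the 80 members, which share the libraries and are not independent replicates, the deviation and GC content had a Pearson r of 0.454 and a Spearman rho of 0.512, and across 11575 tested genes 0.443 and 0.528. After a smooth GC trend was taken out of each library, OX40-knockout 1 was the lowest library for 62 of the 80 members, against 36.4% of all genes, and its median deviation was -0.12, -0.12, -0.22, -0.17 and -0.17 in complexes I to V. Before the correction these medians were -0.09, -0.10, -0.17, -0.16 and -0.15, and for the members together the median was -0.15 before and after. The part of GC content in these values was not tested.

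Protein length also went with that deviation. The 46 tested members with a protein under 150 residues had a median of -0.21 in OX40-knockout 1, and 37 of them were lowest there. The 23 members of 150 to 300 residues had a median of -0.09, and the 11 longer members a median of -0.01, with 4 lowest and 4 highest there. All tested genes in these length classes had medians of -0.12, -0.04 and 0.00. Spearman's rho with protein length was 0.511 across the members (Pearson r 0.372) and 0.123 across 10858 tested genes (Pearson r 0.081), and the same limits hold for these values. After the GC correction the members' medians were -0.20, -0.13 and -0.02, against -0.11, -0.03 and 0.02 over all genes of these classes. By transcript length, the GC-corrected medians under 600 bases were -0.22 over 31 members and -0.21 over all 219 coding genes. At 600 bases or more they were -0.10 over 49 members and 0.005 over all 10484. The 11 members that were highest in OX40-knockout 1 (such as Ndufs7, Ndufv1, Ndufb8, Uqcrc1, Cox6a1 and Atp5d) had a median GC content of 55.1% and a median protein length of 186 residues, against 49.3% and 122 residues for those lowest there. Of these 11 only Ndufv3 and Ndufb8 stayed above the mean after the GC correction. Members with the NRF1 motif shown above for Cox6a1, Atp5g2, Sdha and Atp5h had a median of -0.07 in OX40-knockout 1 (17 genes) and those without it -0.16 (50 genes), a difference that was not tested. The other motifs went the same way. With and without them the medians were -0.12 and -0.15 (ETS), -0.09 and -0.15 (YY1), -0.09 and -0.15 (CREB) and -0.12 and -0.15 (ERR).

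**Figure D3:**
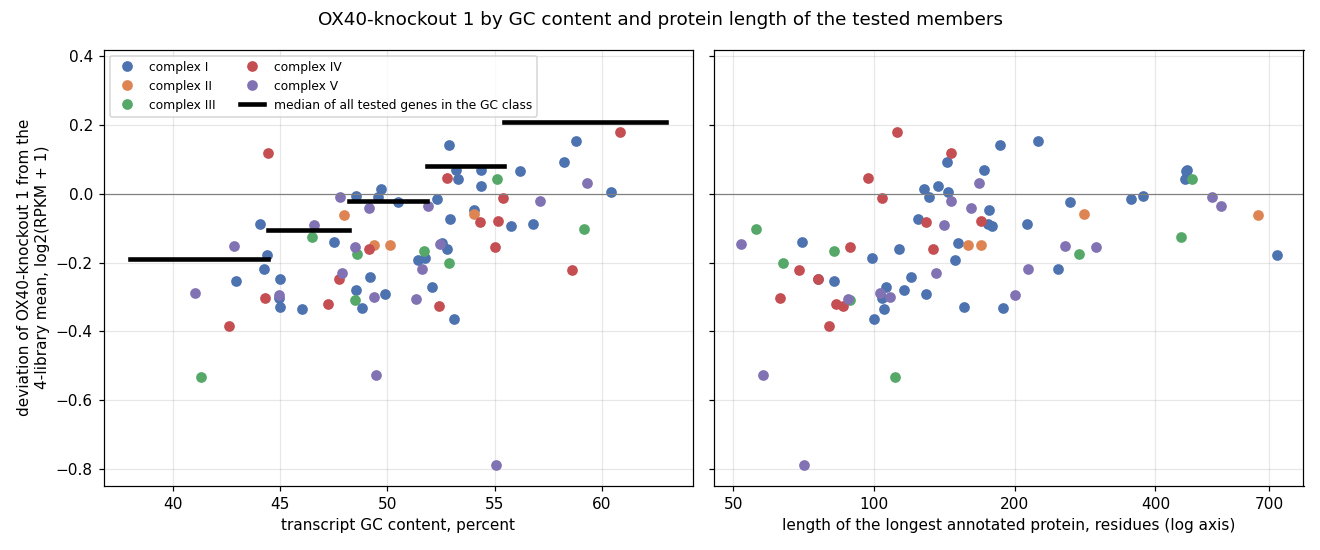
Deviation of OX40-knockout 1 from the 4-library mean, in log2(RPKM + 1) on the vertical axis, against transcript GC content in percent (left) and the length of the longest annotated protein in residues on a log axis (right), with 1 point per tested member coloured by complex. Black lines show the median of all tested genes in each GC class, from -0.19 to 0.21, and most members lie below them.

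How far the genotype comparison rests on single libraries was read by leaving each out. Without OX40-knockout 1 the median log2 change became 0.05 in complex I and 0.07 in complex IV, against -0.05 and -0.11 with all libraries, and complexes III and V turned to 0.12 and 0.04. Without OX40-knockout 2 the medians were -0.14 in complex I, -0.12 in complex II, -0.17 in complex III, -0.23 in complex IV and -0.18 in complex V. In that fit, where the 1 remaining knockout library is assumed to vary like the wild-type group, 31 of the 80 members had an unadjusted limma p under 0.05, against 33.0% of all genes. Of these, 30 were lower, against 16.6% of all genes, and the lowest adjusted p was 0.0526. Without OX40-knockout 1 there were 3, against 4.51% of all genes, and all 3 were higher, against 1.69%.

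**Figure D4:**
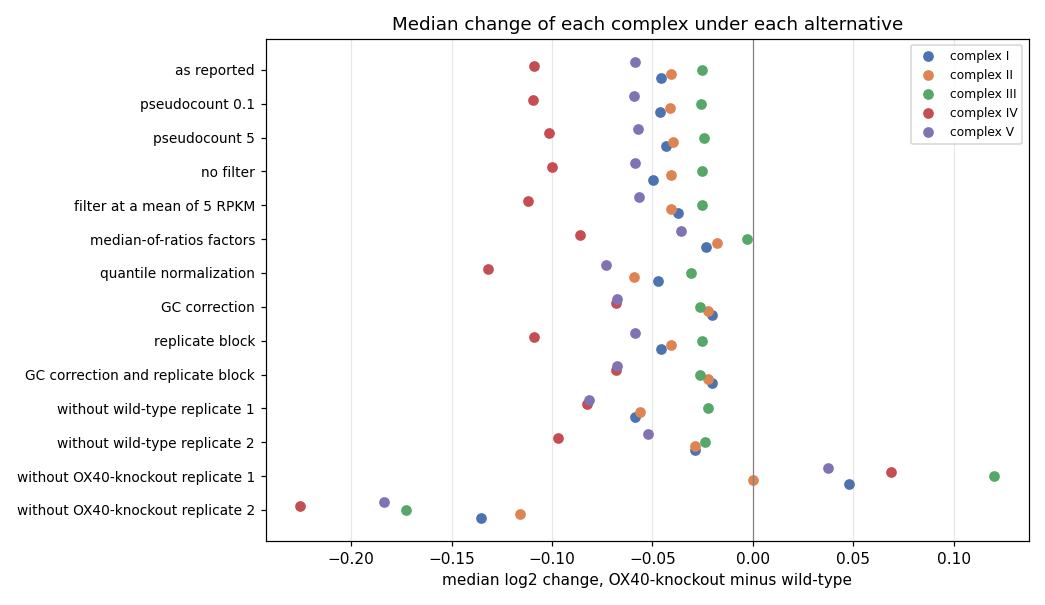
Median log2 change of each complex, knockout minus wild-type in log2(RPKM + 1) on the horizontal axis, under each way of processing the values on the vertical axis, with 1 point per complex. Points stay between -0.13 and 0.00 in the fits that keep all libraries, move to 0.00 or above without OX40-knockout 1, and lie between -0.23 and -0.12 without OX40-knockout 2.

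The subunits encoded by mitochondrial DNA were read beside their nuclear partners. Of these 13 genes 12 were tested, 2 higher and 10 lower in the mean of the knockout libraries, with a median log2 change of -0.18 and none past the limma threshold. mt-Nd4, a proton-pumping subunit of complex I, was at 554, 587, 345 and 615 RPKM (log2 change -0.31, SE 0.29). mt-Atp8, a small subunit of complex V, was at 2.96, 4.62, 7.50 and 6.30 RPKM (0.74, SE 0.23), and was the 1 gene of the list at an unadjusted p under 0.05. The list's median deviation in OX40-knockout 1 was -0.41, and -0.13 after the GC correction, with a median GC content of 36.5%. mt-Atp6, mt-Co2 and mt-Co3 were, like mt-Atp8, listed under 10 RPKM, whereas mt-Co1 stood at 3327 to 4305 RPKM. The sources used here do not say how reads that fit several places were handled, so these low values are uncertain.

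A list of 22 genes took in electron carriers (with Cyc1 among them), dehydrogenases that feed ubiquinone, and genes of ubiquinone synthesis and handling. Of these, 7 were higher and 15 lower, with a median log2 change of -0.04 and a median deviation of -0.16 in OX40-knockout 1. Coq3, a methyltransferase of ubiquinone synthesis, was at 8.56, 9.57, 5.71 and 9.24 RPKM, and Coq8b, a kinase-like protein of the same pathway, at 12.7, 14.7, 18.2 and 13.8 RPKM. Of 48 tested assembly factors 14 were higher and 34 lower (median -0.05). Atpaf1, a chaperone of the F1 head, was at 13.4, 14.7, 11.8 and 11.7 RPKM, lower in both knockout libraries (log2 change -0.24, SE 0.12), and Lrpprc, which stabilises mitochondrial mRNA, at 45.9, 47.8, 35.0 and 45.6 RPKM.

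Of the 13 tricarboxylic acid cycle enzymes 5 were higher and 8 lower (median -0.04), with Suclg1, a subunit of succinyl-CoA ligase, at 52.3, 60.2, 45.8 and 53.3 RPKM. The 16 tested regulators were divided 8 to 8 (median 0.00). Gabpb2 and Gabpa, which encode subunits of GABP, were at 43.4, 42.0, 38.2 and 38.4 RPKM and at 49.3, 47.4, 34.8 and 47.1 RPKM. For both genes each knockout library lay below both wild-type libraries, Gabpa by little in OX40-knockout 2. Neither they nor any other gene of the 5 related lists passed the limma threshold, with a lowest adjusted p of 0.975. Families outside respiration gave a scale for these medians. In OX40-knockout 1 the median deviation was -0.22 over 80 cytosolic ribosomal protein genes, -0.11 over 76 mitochondrial ribosomal protein genes and -0.07 over 38 proteasome subunits, against -0.15 over the 80 respiratory chain members and -0.02 over all tested genes.

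**Figure D5:**
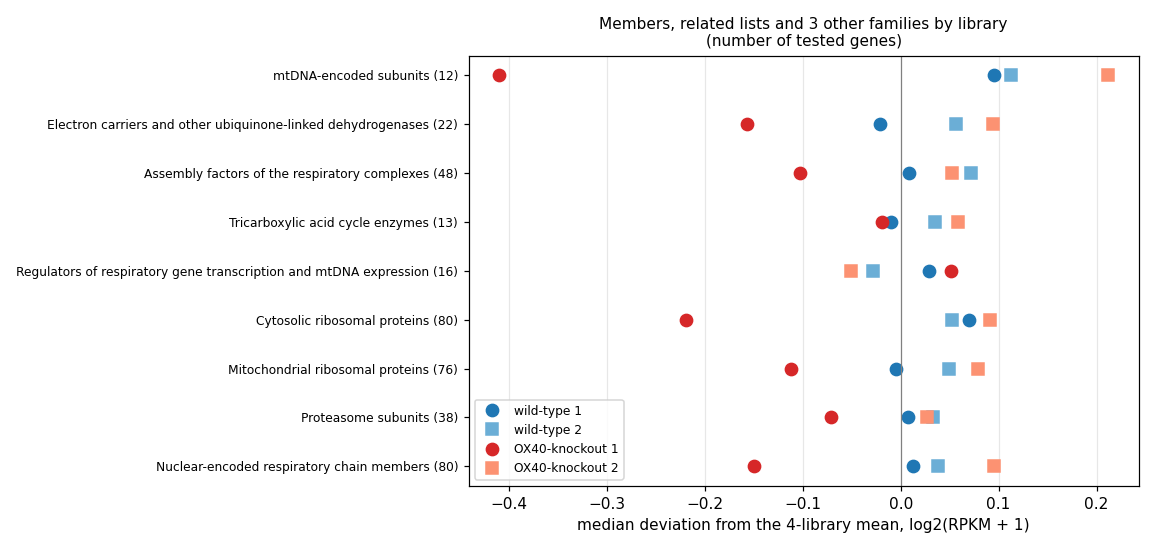
Median deviation from the mean of the 4 libraries, in log2(RPKM + 1) on the horizontal axis, of the respiratory chain members, 5 related gene lists and 3 other families on the vertical axis, with 1 symbol per library and the number of tested genes in parentheses. OX40-knockout 1 is lowest in each row but that of the regulators, from -0.41 for the mtDNA-encoded subunits to -0.02 for the tricarboxylic acid cycle enzymes.

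Several members share sequence with other genes. Of the 85, 20 had at least 10% of their 50-base windows in a transcript of another gene, among them Atp5o (41.6%), Atp5g2 (38.3%), Ndufb6 (31.6%) and Uqcrb (25.5%), and 35 had none. Atp5k (0.6%) and Atp5mpl (0%) were nearly or wholly free of such windows. The values of the 20 are uncertain, since the sources used here give neither the division of shared reads nor the use of strand.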

How the data were processed

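RNA was sequenced from 4 libraries, 2 wild-type and 2 OX40-knockout. The authors deposited 1 table of RPKM values, whose header names no unit. The unit was settled from the values: with the library totals read from single-transcript genes, 81.8% to 82.6% of those genes held whole reads within 0.02 at the annotated length. Bowtie 0.12.2 and mm8 are named in the submitters' processing notes. The sources used here name neither a counting tool nor an annotation. Symbols, transcript length, GC content and protein length came from GENCODE vM21 (GRCm38), which names 34490 of the 35275 rows. Promoter coordinates are of RefSeq on GRCm38.p6.

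limma 3.58.1 in R 4.3.3 was fitted to log2(RPKM + 1) over the 11625 genes whose mean reached 1 RPKM, with genotype only, a mean-variance trend and Benjamini-Hochberg adjustment over all of them (threshold 0.05). An exact permutation test of 2 against 2 libraries cannot go below p = 0.333 and was not used. The fit was also run on simulated data with the same spread for every gene and library. The real libraries differed in spread, so that run does not measure the power or error of the fit here. Deviations, counts and medians are descriptions. Members, lists and tests were chosen with earlier results of these data known. Named were the 3 members of highest mean and the 3 of lowest p in complexes I, III, IV and V, all of complex II, paralog sets, the 6 of widest range, those under the filter and, from each related list, the 2 of lowest p with a mean of at least 5 RPKM; other names were chosen after their values were seen. Genes that the rule takes but that are withheld are not reported here. The 13 alternatives covered pseudocounts of 0.1 and 5, no filter and a filter at 5 RPKM, median-of-ratios factors, quantile normalization, a loess correction on GC content (span 0.3), the replicate block and leaving out each library. Tables were made in Python 3.11.15 (pandas 2.3.3, numpy 2.4.6) and figures in matplotlib 3.10.9.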

Additional observations from a re-analysis of the deposited data

How the results depend on the processing

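Under the 13 alternatives 0 members passed the threshold, and the lowest adjusted p of a named member was 0.0526. Over all genes limma called 1 with quantile normalization, and 0 or 1 with a library left out. With the replicate number as a replicate block it called 5, and with the GC correction and the block also 5, with no member among them. Nothing in the labels pairs the libraries by number. The deviations of replicate 1 in both groups had a correlation of 0.469 over 11625 genes, and the NK markers Ncr1 and Klra8 followed the number, but 2 pairs are too few to settle a pairing.

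Without OX40-knockout 1 the median log2 change was 0.048 in complex I and 0.069 in complex IV, and without OX40-knockout 2 it was -0.12 in complex II. With each library left out in turn the medians ranged from -0.14 to 0.048 in complex I, from -0.12 to 0.00021 in complex II and from -0.23 to 0.069 in complex IV. Single members ranged from -1.05 to 0.014 for Atp5k, from -0.37 to 0.037 for Atp5l, from -0.65 to 0.15 for Atp5mpl, from -0.29 to 0.017 for Atp5o, from -0.39 to 0.029 for Atp5s, from -0.44 to 0.23 for Cox7b and from -0.37 to 0.13 for Uqcrh. With the GC correction, alone or with the block, Cox7b was at 0.016. The cause of these turns was not tested, beyond which library was left out. Of 36 named members, 17 changed direction without OX40-knockout 1 and 4 without OX40-knockout 2. Counting Ndufa4 in complex IV kept both medians within the spread between libraries. Members such as Ndufb2 and Cox6a2, with as few as 24 reads in a library, carry counting error on top of the spread between libraries.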
